A study of Mus musculus with 2 samples.

Results

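Collagen chain genes were described in NIH3T3 cells, an established line of mouse embryonic fibroblasts, kept without or with ALA. The members were the genes whose symbol is Col, a type number, a and a chain number, which gave 44 of the 22838 genes in the deposited table. Messenger RNA was sequenced from untreated cells (1 library) and from cells that received ALA at 100 µM over 16 h (1 library), with no other allele or agent named for either. ALA is not spelled out in the labels. Heme research uses the abbreviation for aminolevulinic acid, from which heme is made, and the series title concerns the protein SRRD, heme synthesis and circadian rhythm. Neither group was replicated, so no difference could be tested or set against a spread, and p-values are absent. NIH3T3 is a single passaged line, so the values describe that line under culture conditions.

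Collagens are extracellular proteins of 3 chains wound into a triple helix, and fibroblasts are their main producers in connective tissue. Fibrillar collagens build the load-bearing fibrils, and type IV collagen forms the sheet-like network of basement membranes. The FACIT group, fibril-associated collagens with interrupted helices, sits on fibril surfaces. The remaining types form beaded filaments, hexagonal networks, anchoring fibrils or membrane-spanning proteins. Members were grouped into these 4 classes, with 11 fibrillar, 6 basement membrane, 9 FACIT and 18 other genes.

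The 2 libraries held a broad fibroblast set of collagen mRNAs dominated by type I, and nearly all abundant chains were slightly lower with ALA. Of the 44 genes, 20 averaged 1 FPKM or more over both libraries and are called measured. FPKM scales the fragments of a gene by its transcript length and by the mapped fragments of the library, so levels of different genes are comparable per length. In the ALA library 18 of the 20 measured collagen genes were lower and 2 were higher, where 52.2% of all 10929 measured genes were lower and 47.8% higher. With 1 FPKM added to each value, none reached a 1.5-fold difference in either direction. On that scale 7.16% of all measured genes were at least 1.5-fold lower and 5.9% at least 1.5-fold higher. At 2-fold the shares of all measured genes were 2.01% lower and 1.49% higher. The median log2 ratio of the 20 genes was -0.17, and that of all measured genes was -0.019. Ratios are log2((ALA FPKM + 1)/(untreated FPKM + 1)) wherever a log2 ratio is given, which understates differences of low genes. Counts at 1.5-fold and 2-fold use these ratios too, unless the plain ratio is named. Other folds and percent differences are the plain ratio of FPKM values. By the plain ratio the low gene Col9a3 was 1.57-fold higher.

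Scaling between the libraries moved the size of these small differences more than their direction. The FPKM values of all genes summed to 540963 in the untreated and 512324 in the ALA library. Setting these totals equal moves plain log2 ratios up by 0.078. After it 17 of 20 measured collagen genes were lower, against 43.1% of all measured genes lower and 56.9% higher, and their median log2 ratio was -0.098. Centred on the median of all measured genes, which puts 50% on either side, 18 of 20 were lower. The summed FPKM of all 44 collagen genes was 4045 untreated and 3643 with ALA, a difference of -9.95%, and the sum over all genes differed by -5.29%. Estimated depth was 22100000 reads for the untreated and 31900000 reads for the ALA library. Of the 20 plain ratios, 17 had a 95% counting interval wholly below 1 as deposited and 14 after equal totals, where 39.8% and 31.1% of all measured genes with a gene model did. Intervals wholly above 1 were found for Col9a3 as deposited and for 2 collagen genes, Col9a3 and Col17a1, after equal totals. Of all measured genes with a gene model, 35.6% and 44.4% had such an interval. These intervals cover counting error only and not the variation between cultures.

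Fibroblast markers were present and most were lower too. All 8 were measured, 7 were lower with ALA, against 52.2% of all measured genes, and their summed FPKM was 10965 untreated and 9594 with ALA. The most abundant was S100a4 with 4976 and 4717 FPKM, a gene with 48.25% of its 41-base stretches also found in other genes. At least 1.5-fold lower were 2 of the 8, Pdgfra with 57.6 and 36.6 FPKM and Thy1 with 60.2 and 38.8 FPKM, where no measured collagen gene was. Of the markers of other cell types, Epcam, Krt18, Kdr, Myod1, Sp7, Hapln1 and Klf1 were listed at 0 in both libraries. The summed FPKM was 85.4 and 114.7 for the 5 epithelial markers, nearly all of it Krt14, a keratin gene with 84.2 and 113.7 FPKM and 19.8% of its 41-base stretches also found in other genes. It was 29.0 and 16.6 for the 6 macrophage and blood markers, led by Lyz2 with 15.2 and 9.59 FPKM, a gene with 22.3% of its 41-base stretches also found in other genes. Named after its values were seen, Cd14 of that list had 13.1 and 4.69 FPKM, while Cd68 with 0.237 and 1.40 and Ptprc with 0.367 and 0.754 FPKM were higher with ALA. The 6 chondrocyte markers summed to 56.4 and 45.1 FPKM, nearly all Sox9, with Acan at 0 and 0.0261 FPKM. The 5 osteoblast markers summed to 16.4 and 13.8 FPKM, nearly all Runx2. Muscle markers, led by Des, summed to 2.30 and 1.88 FPKM, endothelial markers, led by Pecam1, to 0.379 and 0.894 FPKM, and erythroid markers, led by Hbb-bs, to less than 0.01 FPKM. The part of these markers in the collagen values was not tested, and fewer cells of a type and less RNA per cell cannot be told apart in bulk RNA.

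Promoter sequence is shown for the most abundant chains with an entry, for the type IV genes that lie head to head, and for Col10a1, the collagen gene nearest below the level of measured genes. Each run is the 250 bases before the gene's start in RefSeq on GRCm38.p6, 5′ to 3′ on the gene's strand. These starts can differ from those of the GENCODE gene models used for gene positions. The Col1a2 run lies inside its GENCODE model, and the Col6a1 and Col4a5 runs lie partly inside theirs. Capitals mark the CCAAT box, the letters TATAAA of the TATA box and the letters GGGCGG of the GC box, or their reverse complements, and no matches overlap in these runs. The runs are Col1a2 at chr6:4505368-4505617 (plus strand), Col3a1 at chr1:45311288-45311537 (plus), Col6a1 at chr10:76726045-76726294 (minus), Col4a5 at chrX:141475169-141475418 (plus), Col4a6 at chrX:141474077-141474326 (minus) and Col10a1 at chr10:34389731-34389980 (plus).
Col1a2: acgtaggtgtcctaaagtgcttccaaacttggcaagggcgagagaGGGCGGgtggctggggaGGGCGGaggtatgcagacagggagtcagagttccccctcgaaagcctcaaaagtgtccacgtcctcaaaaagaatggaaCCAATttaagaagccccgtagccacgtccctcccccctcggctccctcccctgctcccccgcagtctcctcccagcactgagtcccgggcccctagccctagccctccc
Col3a1: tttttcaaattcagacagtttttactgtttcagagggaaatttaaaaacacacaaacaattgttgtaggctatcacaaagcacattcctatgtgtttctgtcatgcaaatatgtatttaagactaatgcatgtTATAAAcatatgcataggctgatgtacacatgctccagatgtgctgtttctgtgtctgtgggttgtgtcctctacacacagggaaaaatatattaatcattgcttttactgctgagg
Col6a1: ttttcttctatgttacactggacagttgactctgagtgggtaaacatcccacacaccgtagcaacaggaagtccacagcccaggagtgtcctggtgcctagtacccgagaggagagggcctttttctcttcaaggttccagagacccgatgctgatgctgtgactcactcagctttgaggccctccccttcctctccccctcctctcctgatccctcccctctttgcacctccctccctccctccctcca
Col4a5: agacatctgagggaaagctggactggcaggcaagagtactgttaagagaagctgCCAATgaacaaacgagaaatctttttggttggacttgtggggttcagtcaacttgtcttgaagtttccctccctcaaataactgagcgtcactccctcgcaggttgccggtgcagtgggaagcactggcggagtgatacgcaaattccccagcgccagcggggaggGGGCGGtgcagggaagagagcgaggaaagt
Col4a6: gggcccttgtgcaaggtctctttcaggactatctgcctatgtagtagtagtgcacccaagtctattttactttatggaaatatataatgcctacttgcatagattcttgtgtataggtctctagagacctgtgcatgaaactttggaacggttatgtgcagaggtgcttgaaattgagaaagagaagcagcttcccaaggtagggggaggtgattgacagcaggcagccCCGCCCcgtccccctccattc
Col10a1: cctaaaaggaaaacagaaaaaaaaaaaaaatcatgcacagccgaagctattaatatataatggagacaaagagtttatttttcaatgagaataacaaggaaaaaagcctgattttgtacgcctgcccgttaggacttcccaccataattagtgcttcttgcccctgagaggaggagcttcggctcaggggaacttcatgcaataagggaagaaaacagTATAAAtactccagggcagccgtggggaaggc

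The Col1a2 run held CCAAT 109 bases before the start and GGGCGG at 205 and 188 bases, and the Col10a1 run held TATAAA 32 bases before the start. The Col3a1 run held TATAAA at 117 bases and the Col6a1 run none of the 3 motifs. Windows were given for 35 of 44 members and for 16 of the 20 measured ones. CCAAT was found in 9 of these 16 on either strand, against 33.8% of all 32851 windows of that length. GGGCGG was found in 11 against 32.7% of all windows, and TATAAA in 2 against 12.4%. Over all 35 members with a window CCAAT was found in 13, GGGCGG in 21 and TATAAA in 5, which for CCAAT and TATAAA is near the share of all windows. Genes with more than 1 window count once if any window held the motif, and a match is a description of letters only.

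Fibrillar collagens carried most of the collagen mRNA, and all 7 measured members were lower with ALA. Their median log2 ratio was -0.21, and their summed FPKM, over all 11 genes, differed by -9.14%. They held 78.7% of summed collagen FPKM in the untreated and 79.4% in the ALA library.

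Type I collagen, the main fibril protein of skin, tendon and bone, dominated. Col1a2, which encodes its α2 chain, had 1659 FPKM untreated and 1501 FPKM with ALA, and ranked 44 and 49 among all genes. The ALA value was 0.905 of the untreated one, with a 95% counting interval of 0.900 to 0.910 from about 196049 and 256137 reads. Col1a1, the gene of the α1 chain, had 1047 and 980.2 FPKM, a ratio of 0.936 with an interval of 0.930 to 0.943. Both chains were lower with ALA, by somewhat more than the sum of all genes. With equal totals the log2 ratio of Col1a1 was -0.017 and that of Col1a2 -0.065. In GENCODE on GRCm38, Col1a1 lies on chromosome 11 from 94936224 to 94953042 on the plus strand, and Col1a2 on chromosome 6 from 4504814 to 4541544, also on the plus strand.

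Type III and type V chains, which are built into the same fibrils as type I, differed more among themselves. Col3a1, the type III chain, had 284.4 FPKM untreated and 237.3 FPKM with ALA (-16.6%). Col5a2 had 113.7 and 106.7 FPKM (-6.17%), and Col5a1 66.2 and 57.3 FPKM (-13.5%). Col5a3, the least abundant type V chain, had 11.2 and 8.58 FPKM. Its ALA value was 0.770 of the untreated one, with an interval of 0.718 to 0.825. Of the 7 plain ratios those of Col5a3 and Col11a1 were lowest, and those of Col5a2 and Col1a1 nearest to 1.

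Col11a1, best known as a minor fibrillar chain of cartilage, had 2.43 and 1.87 FPKM, a ratio of 0.770 with a wider interval of 0.674 to 0.879 from about 412 and 458 reads. The other 4 fibrillar genes were below a mean of 1 FPKM. Col2a1, the main cartilage collagen, was listed at 0 untreated and had 0.00478 FPKM with ALA. Col24a1 was at 0 in both libraries.

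**Figure D1:**
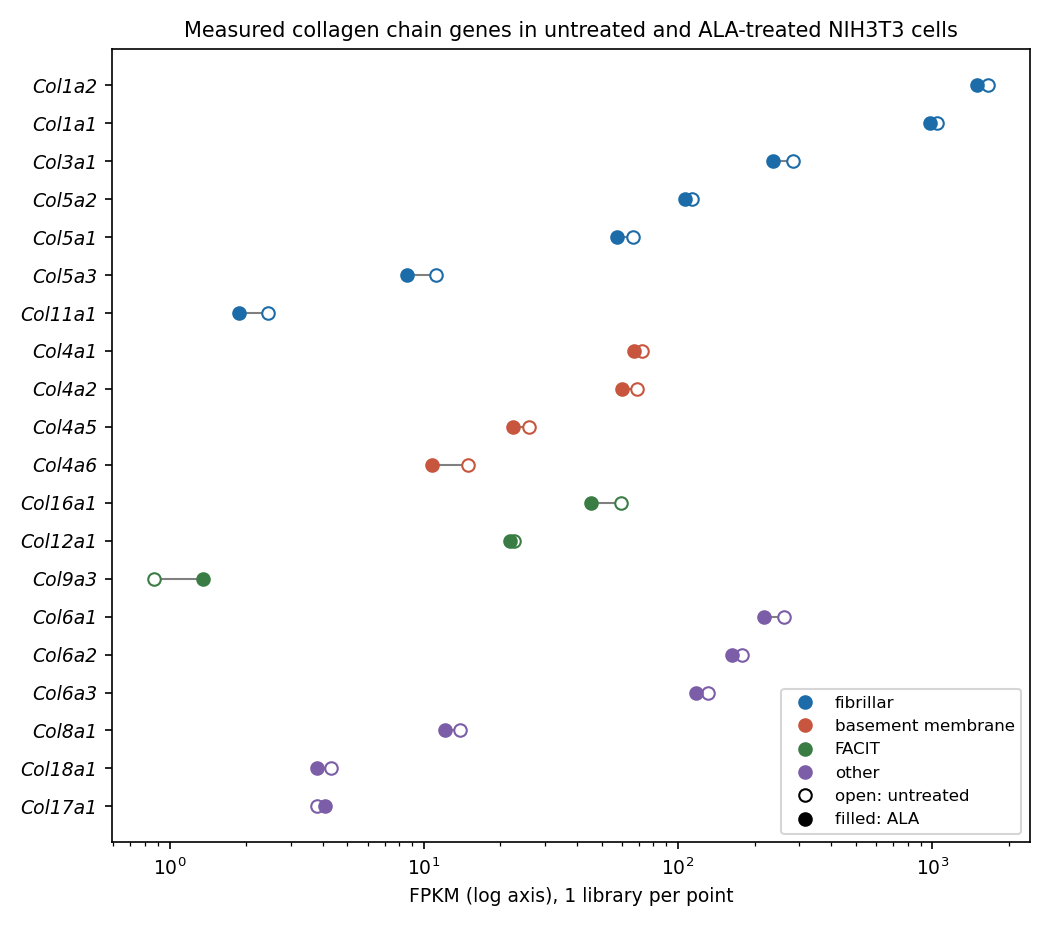
FPKM on a log axis of the 20 measured collagen chain genes, ordered by class and level, with 1 library per point (open: untreated, filled: ALA). Levels run from about 1 FPKM for Col9a3 to 1659 FPKM for Col1a2, and the filled point lies left of the open one for 18 of 20 genes.

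Basement membrane collagen was represented by 4 measured type IV genes, all lower with ALA, with a median log2 ratio of -0.19. Col4a1 and Col4a2 encode the chains of the common type IV network and had nearly equal levels. Col4a1 had 72.2 FPKM untreated and 67.4 FPKM with ALA (-6.73%). Col4a2 had 68.7 and 60.4 FPKM (-12.0%). The intervals of the plain ratios, 0.909 to 0.956 for Col4a1 and 0.857 to 0.903 for Col4a2, did not overlap.

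The pair lies head to head on chromosome 8, Col4a1 on the minus strand at 11198423 to 11312826 and Col4a2 on the plus strand at 11312805 to 11449287. Their annotated 5′ ends overlap by 22 bases, chr8:11312805-11312826, shown on the plus strand because both genes start in them, with the letters of the GC box in capitals.
Col4a1 and Col4a2 5′ ends: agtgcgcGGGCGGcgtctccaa

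Col4a5 and Col4a6, which encode less widely expressed type IV chains, form another head-to-head pair, with 5′ ends 1309 bases apart on chromosome X. Col4a5 had 25.8 FPKM untreated and 22.5 FPKM with ALA (-12.8%). Col4a6 had 14.9 and 10.7 FPKM (-28.2%), with an interval of the ratio of 0.677 to 0.761. This was the lowest log2 ratio of the measured collagen genes, -0.44. Within the pair, the ratio of Col4a5 to Col4a6 was 1.73 untreated and 2.098 with ALA, a pair chosen after its values were seen. Col4a3 and Col4a4, the chains of the kidney glomerulus, had 0 FPKM in the untreated library, and Col4a4 had 0.0380 FPKM with ALA.

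Of the FACIT collagens 3 of 9 were measured, and the better expressed Col16a1 and Col12a1 were both lower as deposited. Col16a1 had 59.9 FPKM untreated and 45.5 FPKM with ALA. Its ALA value was 0.759 of the untreated one with an interval of 0.735 to 0.785, and at a log2 ratio of -0.39 it was the second lowest measured member. It lies on chromosome 4 at 130047840 to 130099283 and shares no exon bases with another gene of the table.

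Col12a1, whose product binds type I fibrils, had 22.5 and 21.9 FPKM, and its interval of 0.938 to 1.003 included 1. Its log2 ratio of -0.042 became 0.033 with equal totals. Col9a3, a chain of cartilage type IX collagen, was higher with ALA at 1.35 against 0.865 FPKM. It counts as measured only through its ALA value, rests on about 58.2 and 131.6 reads, and shares 6.07% of its exon bases with Tcfl5, a gene listed at 0 in both libraries. The deposited position of Col9a3 on chromosome 2, 180598222 to 180642691, runs past its gene model, which ends at 180622189, and across nearly all of Tcfl5 at 180621956 to 180642708. Without Col9a3, 18 of 19 measured collagen genes were lower and the median log2 ratio was -0.18.

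Among the other collagens, the 3 type VI chains that form beaded microfilaments were abundant and lower. Col6a1 had 261.2 FPKM untreated and 217.5 FPKM with ALA (-16.8%). Col6a2 had 178.7 and 163.5 FPKM (-8.51%). Col6a3 had 130.8 and 117.4 FPKM (-10.2%). Col6a1 was thus further from no difference than its partner chains, and its interval of 0.818 to 0.847 did not overlap with theirs. The genes Col6a4, Col6a5 and Col6a6, which encode alternative chains, were each below 0.3 FPKM in both libraries.

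Col8a1, a chain of the hexagonal network collagen type VIII, had 13.9 and 12.1 FPKM (-12.8%), while its partner Col8a2 was listed at 0 in both libraries. Col18a1, whose product holds endostatin at its end, had 4.32 and 3.79 FPKM (-12.4%), with an interval of 0.782 to 0.982. Col17a1, a membrane-spanning collagen of hemidesmosomes, had 3.78 and 4.06 FPKM. Its ratio of 1.07 had an interval of 0.957 to 1.21 that included 1 as deposited. With equal totals its log2 ratio was 0.15 and its interval lay wholly above 1. Col17a1 and Col9a3 were the measured members with a higher value in the ALA library, and both were among the 4 least abundant measured ones.

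**Figure D2:**
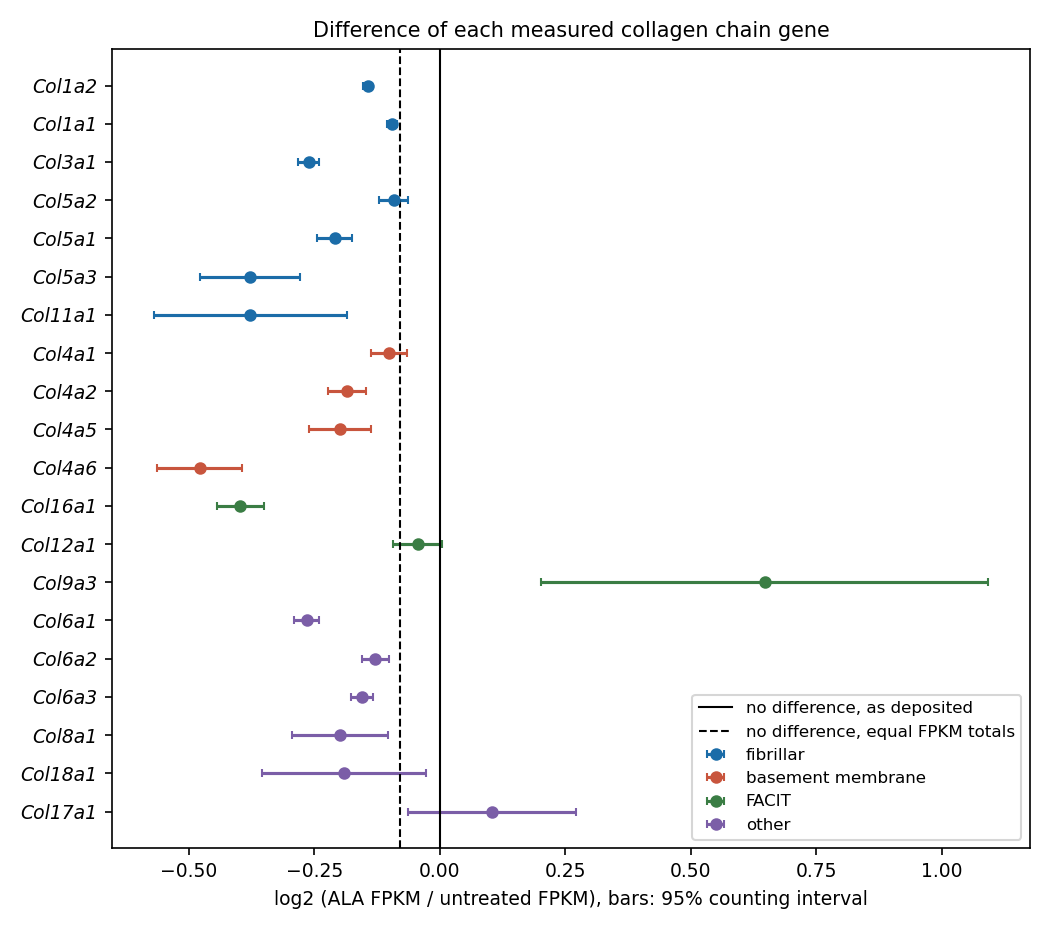
log2 of the plain ratio of ALA to untreated FPKM for the 20 measured collagen chain genes, with bars for the approximate 95% counting interval and 1 library per group. The solid line is no difference as deposited and the dashed line no difference with equal FPKM totals. Col1a1, Col4a1 and Col5a2 lie close to the dashed line, and Col4a6, Col16a1, Col5a3 and Col11a1 furthest below it.

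The spread was narrow among the members of 100 FPKM or more and wider below that level. All 15 collagen genes averaging 10 FPKM or more were lower, with log2 ratios from -0.44 to -0.042. Of all 6569 genes at that level, 53.1% were lower and 46.9% higher. At a mean of at least 5 FPKM 16 of 16 were lower, against 52.5% of all genes lower and 47.5% higher. At 100 FPKM or more, 7 of 7 collagen genes were lower, with log2 ratios from -0.26 to -0.091, and 57.4% of the 749 genes at that level were lower. The middle 50% of log2 ratios at that level ran from -0.20 to 0.091. Within that range lay 5 of the 7 collagen genes, and Col3a1 and Col6a1 lay below it.

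**Figure D3:**
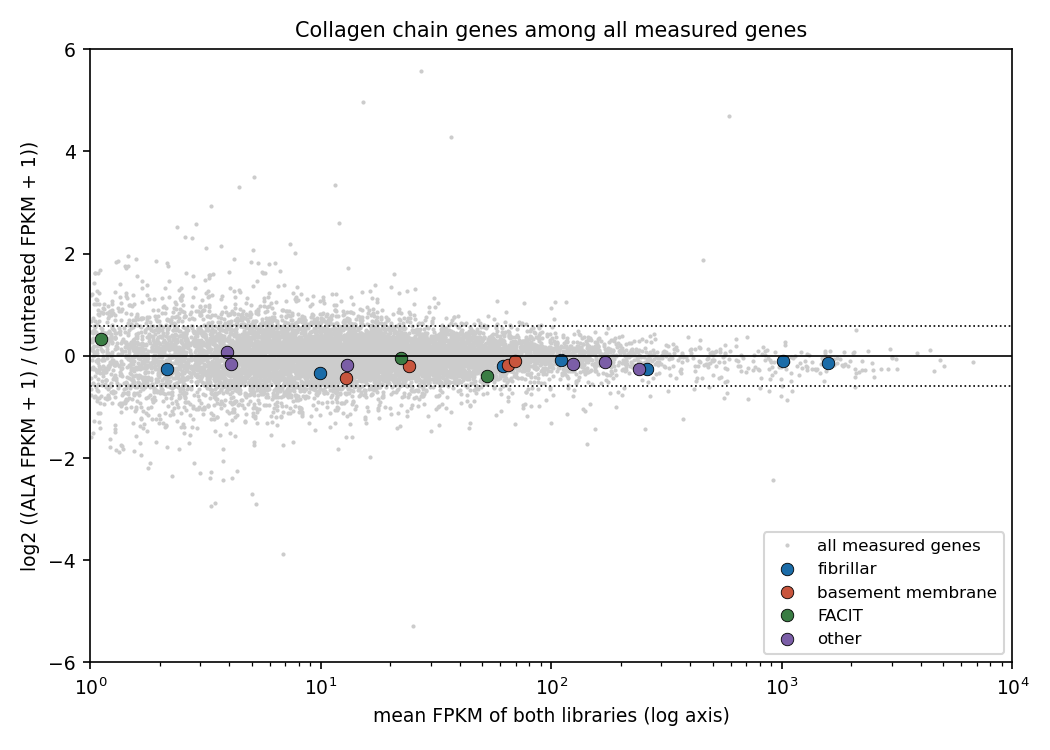
log2 ratio, with 1 added to each FPKM value, against mean FPKM on a log axis for all 10929 measured genes (grey) and the 20 measured collagen chain genes (colours by class). Dotted lines mark a 1.5-fold difference, and all 20 collagen genes lie between them.

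The ratio between partner chains, which does not depend on library scaling, differed by less than 10% between the libraries for the 5 pairs of main chains. Col1a1 over Col1a2 was 0.631 in the untreated and 0.653 in the ALA library. Col4a1 over Col4a2 was 1.05 and 1.11, Col5a1 over Col5a2 0.582 and 0.537, and Col6a1 over Col6a2 1.46 and 1.33. Col6a3 over Col6a1 was 0.501 and 0.540. Between libraries these 5 ratios differed by a factor of 0.910 to 1.08, and that of Col4a5 over Col4a6, given above, by a factor of 1.21. Within the collagen mRNA, Col1a1 stood at 25.9% and 26.9% and Col1a2 at 41.0% and 41.2% of summed collagen FPKM. Collagen genes together held 0.748% of all FPKM untreated and 0.711% with ALA.

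Below a mean of 1 FPKM were 24 members, of which 10 were listed at 0 in both libraries and 4 in the untreated one alone. In the band from 0.1 to 1 FPKM, 6 members were found, and 3 of them were at least 2-fold lower by the plain ratio. Among all 1980 genes of that band 30.6% were at least 2-fold lower and 38% at least 2-fold higher, so such differences are common at this level. Col20a1, a FACIT gene, had 0.902 FPKM untreated and 0.145 FPKM with ALA, about 99.9 and 23.2 reads. Col27a1, a fibrillar gene of cartilage, had 0.486 and 0.0810 FPKM. Both were thus near 6-fold lower by the plain ratio, at levels where few reads were counted. Their counting intervals were 0.102 to 0.253 for Col20a1 and 0.102 to 0.273 for Col27a1.

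Col10a1, the gene of the collagen of hypertrophic cartilage, had 1.38 and 0.496 FPKM, a ratio of 0.359 with an interval of 0.255 to 0.506. It lies on the plus strand of chromosome 10 at 34389981 to 34397085, inside Nt5dc1 on the minus strand at 34288288 to 34418552. The deposited position of Col10a1, 34303612 to 34418528, spans most of Nt5dc1 as well. Nt5dc1 had 3.93 FPKM untreated and 8.40 FPKM with ALA, the opposite direction. The exons of Col10a1 share 18 bases with Nt5dc1, 0.575% of its exon bases, and none of its 41-base stretches occurs in another gene. No strand setting is given, so reads in those 18 bases cannot be assigned to either gene. The other members of the band, Col28a1, Col6a4 and Col7a1, had 0.529 and 0.313, 0.255 and 0.257, and 0.117 and 0.148 FPKM. Of the 18 members below 0.1 FPKM, 8 had a value above 0, with means of at most 0.0835 FPKM.

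Some genes of enzymes that modify collagen chains were further apart between the libraries than any measured chain. In the list of 22 genes for collagen synthesis and secretion, 20 were measured, 14 were lower and 6 higher, and the median log2 ratio was -0.14. At least 1.5-fold lower were 4 of the 20, and none was 1.5-fold higher. Of all measured genes 52.2% were lower, 7.16% at least 1.5-fold lower and 5.9% at least 1.5-fold higher, the shares against which the counts of each list below stand. Plod2, a lysyl hydroxylase, had 53.4 FPKM in untreated cells and 27.6 with ALA, which is -0.93 as log2 ratio. P4ha1 and P4ha2, which encode catalytic subunits of prolyl 4-hydroxylase, had 123.2 and 67.04 FPKM and 76.4 and 44.9 FPKM. P4ha3, the gene of the remaining catalytic subunit, named after its values were seen, had 34.1 and 32.2 FPKM. Plod1 had 74.4 and 49.04 FPKM. Serpinh1, which encodes the collagen chaperone HSP47 and was named after its values were seen, had 396.1 and 412.1 FPKM.

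Procollagen processing and cross-linking genes had 7 of 9 measured members lower, 2 of them at least 1.5-fold, and a median log2 ratio of -0.31, against 52.2% and 7.16% of all measured genes. Loxl4, a lysyl oxidase-like enzyme, had 6.41 FPKM untreated and 3.72 FPKM with ALA. Adamts14, a procollagen N-proteinase, had 2.01 and 0.956 FPKM and so was above 1 FPKM in the untreated library alone. Pcolce, an enhancer of procollagen C-proteinase, had 327.9 and 257.9 FPKM, and Loxl3 37.7 and 30.2 FPKM, with 11.6% of its exon bases in another gene.

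Fibril-binding proteins had 7 of 8 measured members lower and a median log2 ratio of -0.31, with 1 at least 1.5-fold lower. That gene was Dcn, which encodes decorin, a proteoglycan that binds fibrils, at 194.3 FPKM untreated and 100.1 FPKM with ALA. The log2 ratios of Thbs1, Fn1 and Tnxb were -0.46, -0.42 and -0.41. Fn1 and Sparc of this list were also counted among the fibroblast markers above, so the counts are not separate. Collagen receptors and uptake genes had 4 of 6 measured members lower, none at 1.5-fold, and a median of -0.032. Mrc2, the endocytic collagen receptor, had 42.2 and 32.6 FPKM, and Itga11, a collagen-binding integrin subunit, 3.32 and 4.38 FPKM. The log2 ratio of Itga1 was 0.084 and that of Ddr2, a collagen-activated kinase, -0.11.

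Of the collagenases and gelatinases, Mmp14 and Mmp2 were measured, with log2 ratios of -0.29 and -0.17. In TGF-beta signalling, a main inducer of collagen transcription, 11 of 13 measured genes were lower, against 52.2% of all measured genes, with a median log2 ratio of -0.18. At least 1.5-fold lower was 1 of the 13, a share near the 7.16% of all measured genes. The target gene Tgfbi had 68.4 and 44.6 FPKM, while the ligand gene Tgfb1 had 19.4 and 26.0 FPKM. The receptor genes Tgfbr3 and Tgfbr2 were at -0.34 and -0.31. Of the transcription factors known to act on collagen genes, 12 of 16 measured ones were lower with a median of -0.16, where 52.2% of all measured genes were lower and 5.9% at least 1.5-fold higher. Fli1, a repressor of Col1a2, had 0.611 and 1.57 FPKM and was the 1 member at least 1.5-fold higher, counted as measured only through its ALA value. Nfyc, a subunit of the CCAAT-binding factor, was at -0.55, with 24.4% of its 41-base stretches also found in other genes. The cartilage regulators Sox5 and Sox9 were at -0.32 and -0.31. Sox9 and Runx2 of this list were also among the chondrocyte and osteoblast markers above.

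**Figure D4:**
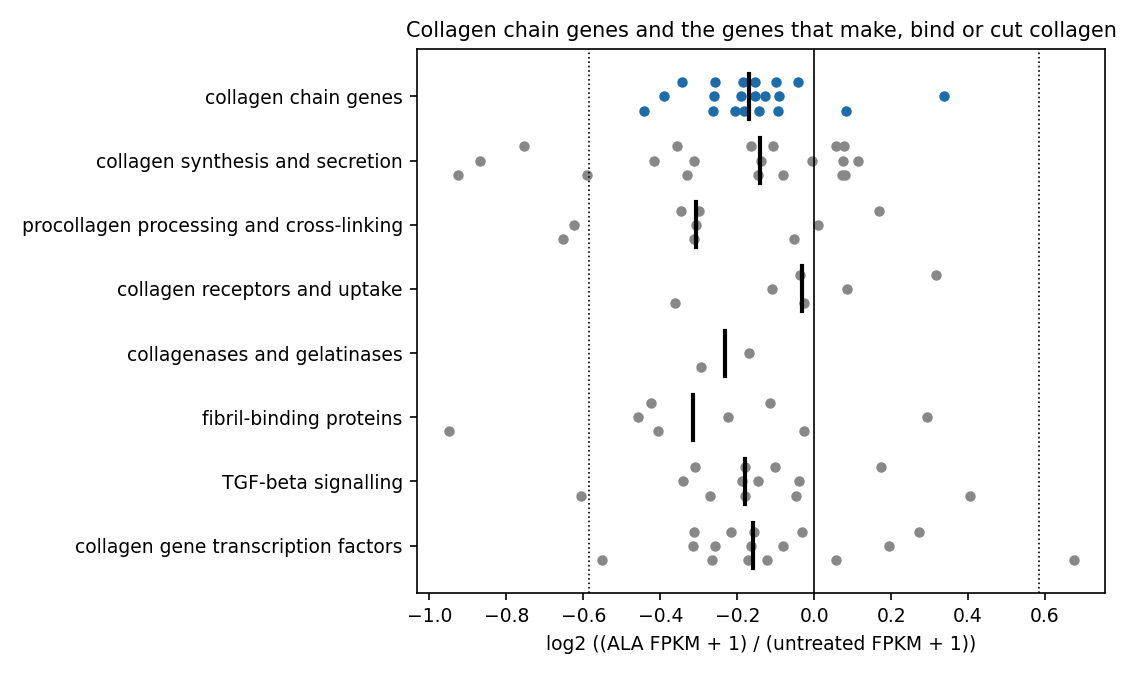
log2 ratio, with 1 added to each FPKM value, of the measured collagen chain genes (blue) and of the measured genes of 7 lists (grey), 1 point per gene, with the median as a black bar and dotted lines at a 1.5-fold difference. The vertical offset of points is for display only. On this scale all measured collagen chain genes lie within 1.5-fold, and 4 genes of collagen synthesis and secretion lie below it.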

How the data were processed

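Expression in 1 untreated and 1 ALA library was read from the deposited table of FPKM values, per the file headers in the layout of Cufflinks, with 1 value per gene and library. Per the labels' protocols, TruSeq libraries gave single-end reads of 41 bases. FastQC 0.11.5, TopHat2 2.1.1, Cufflinks 2.2.1 and build mm10 are named in the submitters' processing notes. For the annotation, the strand setting and any scaling of libraries, the choice is not given in the sources used here. The deposited interval bounds were equal for 100% of the members and carry no error.

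Log2 ratios used a pseudocount of 1 and were summarised over genes averaging 1 FPKM or more. Differences were described by folds of 1.5 and 2 on these ratios beside all measured genes. FPKM values are not counts and 1 library per group allows no test. Low FPKM values fall on steps that depth sets. From 156 and 243 single-transcript genes longer than 1500 bp it was estimated at 22100000 reads (21700000 to 22600000 scored nearly as well) and 31900000 reads (27500000 to 32400000). Approximate reads are FPKM times longest transcript length times depth, and intervals (95%, log ratio of Poisson counts) cover counting error only. The procedure was tested on simulated data. Gene models came from GENCODE vM21 on GRCm38, the assembly of mm10, and 94.4% of genes matched by name and position. The largest overlap of a member with another gene was 6.07% of its exon bases, and of measured members at most 5.10% of the 41-base stretches occurred in other genes.

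Every measured member is given, together with up to 4 measured genes with the largest log2 ratios of each of 7 pathway lists and the most abundant gene of each marker list. Members and lists were chosen with earlier results of these data known. Alternatives were pseudocounts of 0.1 and 5, no filter, a mean of at least 5 FPKM, equal FPKM totals and centring on the median. Col21a1 was not analysed here. Scripts ran in Python 3.11.15 with pandas 2.3.3, NumPy 2.4.6, SciPy 1.17.1 and Matplotlib 3.10.9.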

Additional observations from a re-analysis of the deposited data

How the results depend on the processing

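Collagen chain genes lower with ALA numbered 18 with centring on the median and 17 with equal totals. At a mean of at least 5 FPKM they were 16 of 16. The count was also 18 with either pseudocount, but adding one amount to both values cannot change which is higher. With no filter 24 of 44 were lower, where 10 of the 44 were 0 in both libraries and could not be. No share of all genes was computed without a filter, so the counts with no filter have none beside them. The collagen median log2 ratio stayed negative in every alternative run, from -0.19 with a pseudocount of 0.1 to -0.091 with no filter. With the pseudocount added, no gene was 2-fold apart in any of them. On that scale 2 genes were at least 1.5-fold lower with no filter, Col10a1 and Col20a1. With a pseudocount of 0.1 the low gene Col9a3 was the 1 gene at least 1.5-fold higher. By the plain ratio Col20a1, Col27a1 and Col10a1 were more than 2-fold lower. Some genes below 0.1 FPKM were more than 2-fold apart by that ratio, in either direction. The FACIT median was -0.22 at a mean of at least 5 FPKM, which leaves Col16a1 and Col12a1, and 0.033 with equal totals, where Col12a1 itself turned to 0.033. The median of the other collagens was 0 with no filter. With equal totals the median of collagen receptors and uptake was 0.045. With no filter the medians were -0.18 for procollagen processing and cross-linking, -0.045 for collagenases and gelatinases and -0.17 for fibril-binding proteins, as unmeasured genes near a ratio of 0 enter. The collagen share of all FPKM, weighted by coding length, was 2.92% untreated and 2.73% with ALA, and without the 100 most abundant other genes 1.14% and 1.06%. Of 116 values of single measured collagen genes under alternatives, 100 moved by less than their counting interval, 15 moved by more and 1 changed sign. The 100 include every value under the alternative filters, which cannot change the ratio of a single gene. Most of the values that moved by more were those with equal totals, and the change of sign was that of Col12a1 there. The values in the band of 0.1 to 1 FPKM, the level of at least 10 FPKM and the count without Col9a3 were chosen after seeing the data. No paired analysis was possible because each group has 1 library. Depth limits the members below 1 FPKM, where few reads were counted.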

Other observations

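Other neighbouring collagen genes differed in how far apart their ratios lay. Col3a1 and Col5a2 lie on opposite strands of chromosome 1 with 24614 bases between them, and their log2 ratios were -0.26 and -0.091. Col6a1 and Col6a2 lie on the same strand of chromosome 10 with 85161 bases between them, and their log2 ratios were -0.26 and -0.13. Col4a3 and Col4a4, with 5′ ends 72 bases apart on chromosome 1, were both below 0.05 FPKM in both libraries.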
